A study of Mus musculus with 6 samples.

Results

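Neutrophil granule genes encode the antimicrobial proteins, proteases and oxidative enzymes that neutrophils pack into granules while they mature. The 10 genes described here were chosen by name, with earlier results of these data known. Mpo, Elane, Prtn3 and Ctsg were taken as early (primary, or azurophil) granule genes, and Camp, Ngp, Ltf, Lcn2, Chil3 and Mmp9 as late granule genes. Every probe set annotated to 1 of these symbols alone was taken, which gave 11 of the 22626 probe sets of the first array type (chip A, controls left out) and 0 of the 22511 of the second (chip B). Mmp9 had 2 probe sets and each other gene had 1, so all values of these 10 genes below come from chip A.

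The study measured sorted mature olfactory sensory neurons (OSNs), the epithelium that remained after those neurons were removed (the residual epithelium), and brain without its olfactory bulbs, to find transcripts enriched in OSNs. All 3 populations came from OMP-GFP mice, in which GFP stands in place of the coding region of Omp, so that mature OSNs fluoresce and can be sorted. RNA was taken from about 500000 cells of the sorted fraction and about 2500000 of the residual one, per the labels. The sources used here do not give the age, sex or number of the mice, or whether 1 or both copies of Omp were replaced. Each population was measured on 1 array of each chip, so no difference has a replicate check and no p-value is given. The precision is limited by the number of arrays.

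Neutrophils form in the bone marrow, and their granule proteins are made in a fixed sequence. Primary granule proteins, such as myeloperoxidase and the serine proteases, are transcribed in promyelocytes. Proteins of the secondary and tertiary granules follow at later stages, and by the time a neutrophil circulates most granule genes have been switched off. The transcription factors PU.1, C/EBP alpha, MYB and RUNX1 are known to act on primary granule genes, and mice that lack C/EBP epsilon fail to form secondary granules. Several members have other sources: lactoferrin (Ltf) and lipocalin 2 (Lcn2) are also made by glands and other epithelia, Chil3 by macrophages, and Mmp9 by macrophages and stromal cells.

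Promoters of some early and some late members are shown first, because the granule classes are compared below. RefSeq sequences of build GRCm38.p6 were matched by symbol for 9 of the 10 genes, all but Mmp9. The files name no build, so these coordinates are those of RefSeq and not of the arrays. A pair of early genes that are adjacent on chromosome 10 and a pair of late genes that lie on chromosome 9 are printed here. Each is given as the 250 bases before the annotated transcript start, read 5′ to 3′. Camp, also a late gene on chromosome 9, is not printed and held no match to the motifs marked below. The printed pairs therefore do not stand for their classes. Capitals mark matches on either strand to TTNCNNAA, a loose C/EBP motif whose reverse complement is TTNNGNAA (runs of 8 capitals), and to GAGGAA, a PU.1 core whose reverse complement is TTCCTC (runs of 6 capitals).
Elane, chr10:79886062-79886311, plus strand: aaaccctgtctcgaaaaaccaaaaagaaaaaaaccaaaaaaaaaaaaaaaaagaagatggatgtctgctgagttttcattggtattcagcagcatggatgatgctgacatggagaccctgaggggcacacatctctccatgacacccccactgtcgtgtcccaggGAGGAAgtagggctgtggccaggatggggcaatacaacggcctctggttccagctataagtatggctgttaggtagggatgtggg
Prtn3, chr10:79879417-79879666, plus strand: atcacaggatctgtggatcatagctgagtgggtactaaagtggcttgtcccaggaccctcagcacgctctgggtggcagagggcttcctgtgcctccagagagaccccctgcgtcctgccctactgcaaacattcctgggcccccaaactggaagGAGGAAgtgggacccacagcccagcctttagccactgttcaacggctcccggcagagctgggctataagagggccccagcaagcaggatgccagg
Ngp, chr9:110419558-110419807, plus strand: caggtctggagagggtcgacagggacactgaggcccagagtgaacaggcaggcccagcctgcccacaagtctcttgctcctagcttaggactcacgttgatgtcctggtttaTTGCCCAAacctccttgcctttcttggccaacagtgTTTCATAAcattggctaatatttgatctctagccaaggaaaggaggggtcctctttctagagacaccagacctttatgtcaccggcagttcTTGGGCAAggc
Ltf, chr9:111019042-111019291, plus strand: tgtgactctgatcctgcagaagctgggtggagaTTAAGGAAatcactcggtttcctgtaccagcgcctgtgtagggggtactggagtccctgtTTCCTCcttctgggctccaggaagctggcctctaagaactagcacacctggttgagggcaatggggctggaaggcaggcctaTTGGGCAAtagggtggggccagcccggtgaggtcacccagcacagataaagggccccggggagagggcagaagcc

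The loose C/EBP letters were found in 4 of 5 late promoters (Ngp with 3 matches, Chil3 with 3, Ltf with 2 and Lcn2 with 1) and in 0 of 4 early promoters. Of all 32851 promoter windows in the table, 36.8% held them. The PU.1 core was found in all 4 early promoters and in 2 of 5 late ones (Ltf and Lcn2), against 23.3% of all windows. No C/EBP match overlapped a PU.1 match. The other motifs searched on both strands were a RUNX core (TGTGGT), found in Ctsg only and in 14% of all windows, and a MYB core (AACNGT), found in 3 early and 2 late promoters and in 22.3% of all windows. A TATA motif (TATAAA) was found in Ctsg only, on the reverse strand, and in 12.4% of all windows. Camp held none of the 5 motifs in this window. A match is a description of letters and does not show that a factor binds, and a window without a match says nothing about the factor.

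**Figure D1:**
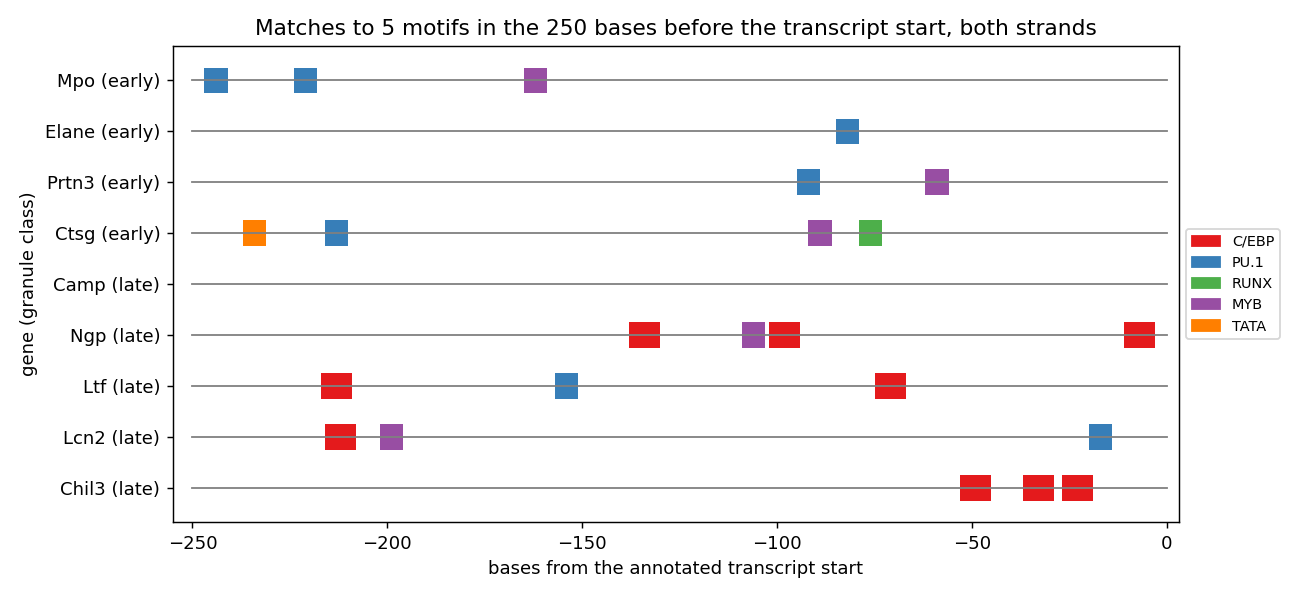
Matches to 5 short motifs in the 250 bases before the annotated transcript start of 9 granule genes (x axis, bases from the start; 1 line per gene; coloured boxes, matches on either strand). C/EBP matches lie only in late genes (4 of 5), and each of the 4 early genes has at least 1 PU.1 match.

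The deposited values are probe set signals on a linear scale, scaled by the authors so that each array has about the same trimmed mean. Signals under the lower quartile of the 3 arrays of chip A (70.6, here the floor) were raised to it before ratios were taken. A ratio whose lower signal lay at the floor is a bound, given as "at least". A comparison counted a probe set if at least 1 of both signals reached the median of chip A (222.2), and the probe set was called higher or lower from 2-fold. Probe sets differ in how strongly they bind, so signals were compared between populations for 1 probe set and not between genes.

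Marker lists were used to check the labels. Some genes of these and later lists, Cnga4 among them, were read on chip B, with its own floor (79.9) and filter (243.6). All 7 mature OSN markers were at least 2-fold higher in OSNs relative to residual epithelium, from 11.9-fold for Gng13 to 82.8-fold for Cnga4. All 5 brain neuron and all 5 brain glia markers measured were at least 2-fold lower in OSNs than in brain, with median log2 ratios of -5.25 and -3.05. Sustentacular markers, those of the supporting cells, were split in OSNs over residual epithelium, with 3 of 6 lower and 3 within 2-fold. Of the latter, Cyp2g1 had 3821.8 in OSNs, against 2657.3 in residual epithelium and 102.7 in brain. Cyp1a2 had 424.4, 334.7 and 16.4 in the same order. The part of supporting-cell RNA in the OSN signals was not tested. Log2 ratios of the 100 probe sets present on both chips differed between chips by 0.23 on average with an SD of 0.25 for OSNs over residual epithelium, and for residual epithelium over brain the average was -0.42 and the SD 0.34. Between probe sets that share a gene, the SDs of these ratios were 0.59 and 0.74. Neither SD stands for the spread between animals.

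Neutrophil granule genes gave higher signals in the residual epithelium than in both other populations. All 11 probe sets were at least 2-fold lower in OSNs relative to residual epithelium, where 18.8% of all 12749 counted probe sets of chip A were lower. All 11 were at least 2-fold higher in residual epithelium than in brain, against 21.2% of all counted probe sets. Both comparisons use the same residual array, and the members were chosen with earlier results of these data known. Only 3 of the 11 reached the signal filter in OSNs (Mpo, Ngp and Ltf) and 2 did so in brain (Ngp and Ltf), whereas all 11 reached it in residual epithelium, so for most members the filter itself fixes the sign of the ratio. In RNA from a mixture, fewer cells of a type and less RNA per cell cannot be told apart.

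**Figure D2:**
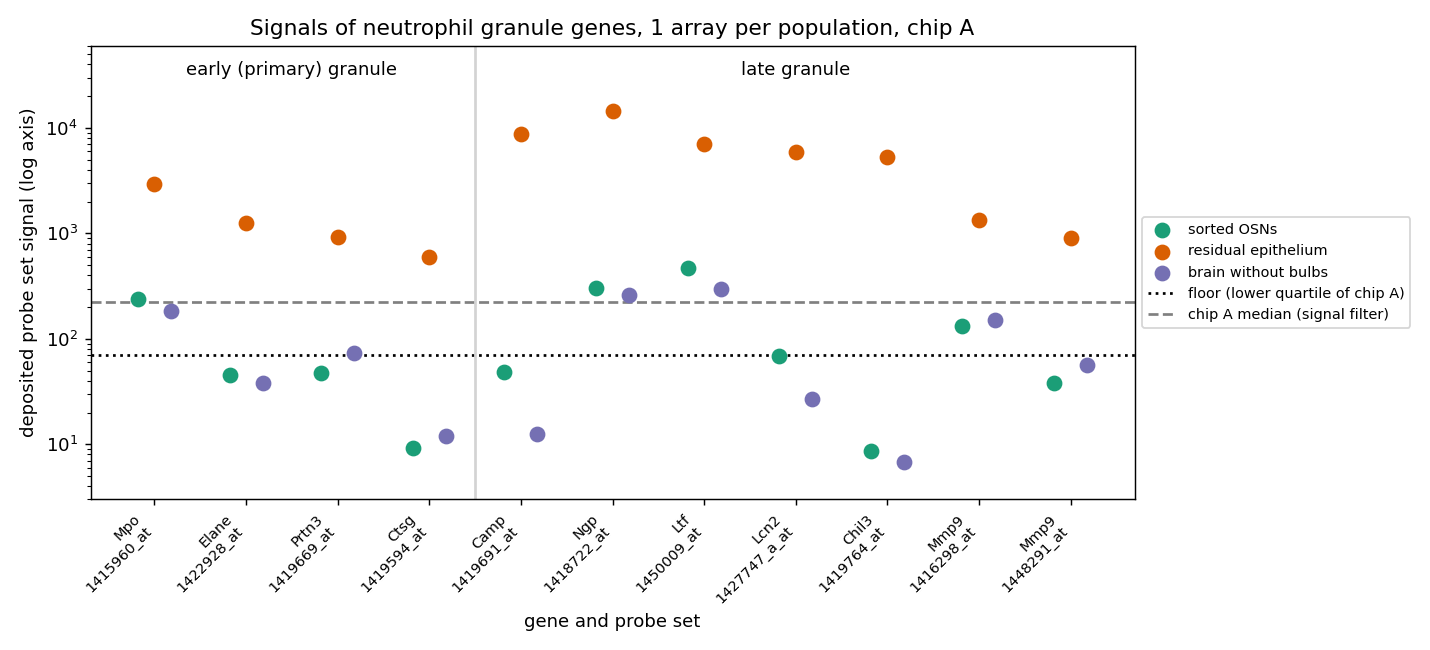
Deposited signals (log axis) of the 11 granule gene probe sets on chip A, with 1 point per array: sorted OSNs (green, left), residual epithelium (orange, centre) and brain without olfactory bulbs (purple, right). For each of the 11 probe sets the residual signal is above the OSN signal and the brain signal.

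Among the early genes, Mpo encodes myeloperoxidase, the haem enzyme that makes hypochlorous acid. Mpo (1415960_at) had a signal of 241.2 in OSNs, against 2937.8 in residual epithelium and 182.7 in brain. It was the only early member whose OSN signal was above the floor. It was 12.2-fold lower in OSNs relative to residual epithelium (log2 ratio -3.61), and 16.1-fold higher in residual epithelium than in brain (log2 ratio 4.01).

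Elane, Prtn3 and Ctsg encode neutrophil elastase, proteinase 3 and cathepsin G, serine proteases of the primary granule, and Prtn3 and Elane lie next to each other with 0 protein-coding genes between them in the RefSeq order. Elane (1422928_at) had signals of 45.6, 1248.4 and 37.8 in OSNs, residual epithelium and brain. Prtn3 (1419669_at) had 47.0, 933.0 and 72.9 in the same order. Only its brain signal, just over the floor, could be set against the residual one without a bound. Ctsg (1419594_at) had 9.3, 593.5 and 12.1, with OSNs and brain both under the floor. Elane was at least 17.7-fold, Prtn3 at least 13.2-fold and Ctsg at least 8.41-fold lower in OSNs relative to residual epithelium. Against brain, residual epithelium was at least 17.7-fold higher for Elane, 12.8-fold for Prtn3 and at least 8.41-fold for Ctsg.

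Among the late genes, Camp and Ngp encode small cationic proteins of the secondary granule that share a cathelin-like fold: Camp is the precursor of the mouse cathelicidin peptide and Ngp is neutrophilic granule protein. Both lie on chromosome 9, with 8 protein-coding genes between them in the RefSeq order. Camp (1419691_at) had a signal of 48.7 in OSNs, against 8745 in residual epithelium and 12.5 in brain. With OSNs and brain both under the floor, Camp was at least 124-fold lower in OSNs relative to residual epithelium and at least 124-fold higher in residual epithelium than in brain. Ngp (1418722_at) had 306.1 in OSNs, against 14374.5 in residual epithelium and 261.8 in brain. All 3 Ngp signals lay above the filter, so its ratios are measured on both sides: 47.0-fold lower in OSNs relative to residual epithelium and 54.9-fold higher in residual epithelium than in brain. Its OSN signal was 2.13% and its brain signal 1.82% of the residual signal.

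Ltf and Lcn2 encode proteins that withhold iron from bacteria, lactoferrin by binding iron and lipocalin 2 by binding bacterial siderophores. Ltf (1450009_at), also on chromosome 9, had 468 in OSNs, against 6988.3 in residual epithelium and 294.6 in brain. Ltf was 14.9-fold lower in OSNs relative to residual epithelium and 23.7-fold higher in residual epithelium than in brain, with all 3 signals above the filter. Lcn2 (1427747_a_at) had 69.0, 5949.7 and 26.8 in OSNs, residual epithelium and brain, so its OSN signal was just under the floor. It was at least 84.3-fold lower in OSNs relative to residual epithelium, and at least 84.3-fold higher in residual epithelium than in brain.

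Chil3 encodes Ym1, a chitinase-like lectin, and Mmp9 encodes gelatinase B, the protease of the tertiary granule. Chil3 (1419764_at) had 8.7 in OSNs, against 5339.7 in residual epithelium and 6.8 in brain, so both other populations lay far under the floor. It was at least 75.6-fold lower in OSNs relative to residual epithelium, and at least 75.6-fold higher in residual epithelium than in brain. Mmp9 was measured by a pair of probe sets. The first (1416298_at) had 133.2, 1331.7 and 151.2 in OSNs, residual epithelium and brain, and was 9.998-fold lower in OSNs relative to residual epithelium and 8.81-fold higher in residual epithelium than in brain. The other (1448291_at) had 37.9, 909.0 and 56.9, and was at least 12.9-fold lower in OSNs and at least 12.9-fold higher in residual epithelium than in brain. Without the floor, the log2 ratios of the 2 Mmp9 probe sets differed by 1.26 for OSNs over residual epithelium and by 0.86 for residual epithelium over brain.

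**Figure D3:**
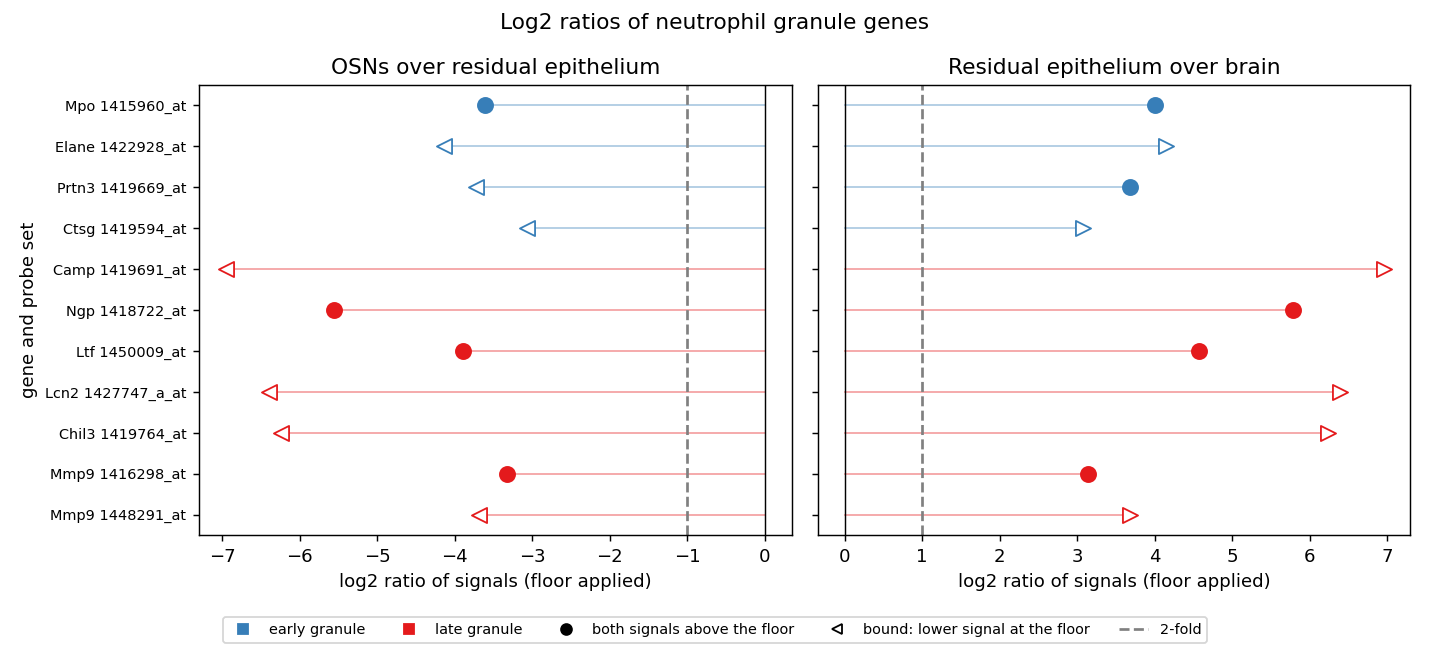
Log2 ratios of the 11 granule gene probe sets for OSNs over residual epithelium (left) and residual epithelium over brain (right), early genes in blue and late genes in red; filled circles have both signals above the floor and open triangles are bounds. All points lie beyond 2-fold, from -3.07 to -6.95 on the left and from 3.07 to 6.95 on the right, and the classes overlap.

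Early and late granule genes were both lower in OSNs relative to residual epithelium, and the ratios of the classes overlapped. For OSNs over residual epithelium the 4 early probe sets ranged from -4.14 to -3.07 (median log2 ratio -3.67) and the 7 late ones from -6.95 to -3.32 (median -5.55), where the median of all counted probe sets of chip A was -0.02. Of these, 3 early and 4 late ratios were bounds. The size of a bound follows from the residual signal of its own probe set, so the difference between the class medians cannot be read as a stronger depletion of late transcripts. On both sides of the floor only Mpo among early genes (12.2-fold) and Ngp, Ltf and 1 Mmp9 probe set among late genes (47.0-fold, 14.9-fold and 9.998-fold) were measured, and the early value lay within the late range. For residual epithelium over brain the measured values were 12.8-fold and 16.1-fold for the early genes Prtn3 and Mpo and 8.81-fold to 54.9-fold for the late genes. The value of Prtn3 rests on a brain signal of 72.9, next to the floor of 70.6, and its log2 ratio was 2.67 with the floor at percentile 40 of chip A, against 3.68 as reported. Here the early median was 3.84 and the late median 5.78, with 2 of 4 and 4 of 7 values as bounds, and the median of all counted probe sets was 0.05. Mmp9 lay within the range of the early genes in both comparisons, as did Ltf for OSNs over residual epithelium, and the late genes with the larger ratios or bounds were Camp, Ngp, Lcn2 and Chil3.

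Where they could be counted, granule gene signals in OSNs were within 2-fold of those in brain. Of the 11 probe sets, 3 were counted in OSNs over brain, and 0 were called, where 22% of all 13131 counted probe sets of chip A were lower and 16.1% were higher. The early gene Mpo had a log2 ratio of 0.40, and the late genes Ngp and Ltf had 0.23 and 0.67. These ratios were smaller than the SD of 0.75 between probe sets of the same gene for this comparison, and those of Mpo and Ltf were larger than the SD of 0.29 between chips. Of the other 8, the first Mmp9 probe set had a higher signal in brain (133.2 in OSNs, 151.2 in brain). In the remaining 7 the OSN signal was under the floor.

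The rank of each probe set within its own array does not depend on how arrays were scaled. In OSNs the 11 probe sets lay between percentile 5.80 and percentile 69.5 of chip A, in residual epithelium between percentile 73.5 and percentile 99.9, and in brain between percentile 3.45 and percentile 55.5. The early probe sets reached at most percentile 55.0 in OSNs, percentile 96.0 in residual epithelium and percentile 43.2 in brain. Each of the 11 ranked higher on the residual array than on both other arrays.

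Most other counted genes of the early and late granule lists differed in the same direction as the members. For these lists each gene was represented by the probe set, on either chip, whose mean log2 signal ranked highest on its chip, and 18.7% of all 12255 counted genes were lower by 2-fold or more in OSNs relative to residual epithelium. Among 8 counted genes of 12 listed for primary granules and promyelocytes, 7 were lower and 0 higher (median log2 ratio -2.31, against -0.05 for all counted genes). Srgn, the proteoglycan core on which granule proteins are stored, was at least 69.2-fold lower, and Lyz2, the lysozyme of myeloid cells, was 25.9-fold lower. Nkg7, a granule membrane protein also known from cytotoxic lymphocytes, was 3.42-fold lower, with an OSN signal of 73.5 next to the floor. Ms4a3, a promyelocyte membrane protein, had signals of 296.8 in OSNs, against 446.9 in residual epithelium and 208.5 in brain, and its log2 ratio of -0.59 stayed within 2-fold. All 18 counted genes of the 24 in the late list were lower (median -4.28). That list is not limited to granule proteins. S100a8 and S100a9, the subunits of calprotectin, which is cytosolic and not a granule protein, were 90.1-fold and 77.2-fold lower. Adam8, a membrane protease, and Slpi, an inhibitor of elastase, were 2.99-fold and 2.82-fold lower. Among genes with both signals above the floor, 5 further early genes had a median of -2.05 (from -4.70 to -0.59) and 10 further late genes a median of -3.72 (from -6.49 to -1.49), so these ranges overlapped too. Of the counted genes, 5 of the 8 early and 15 of the 18 late ones reached the filter in residual epithelium only, which fixes their sign.

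**Figure D4:**
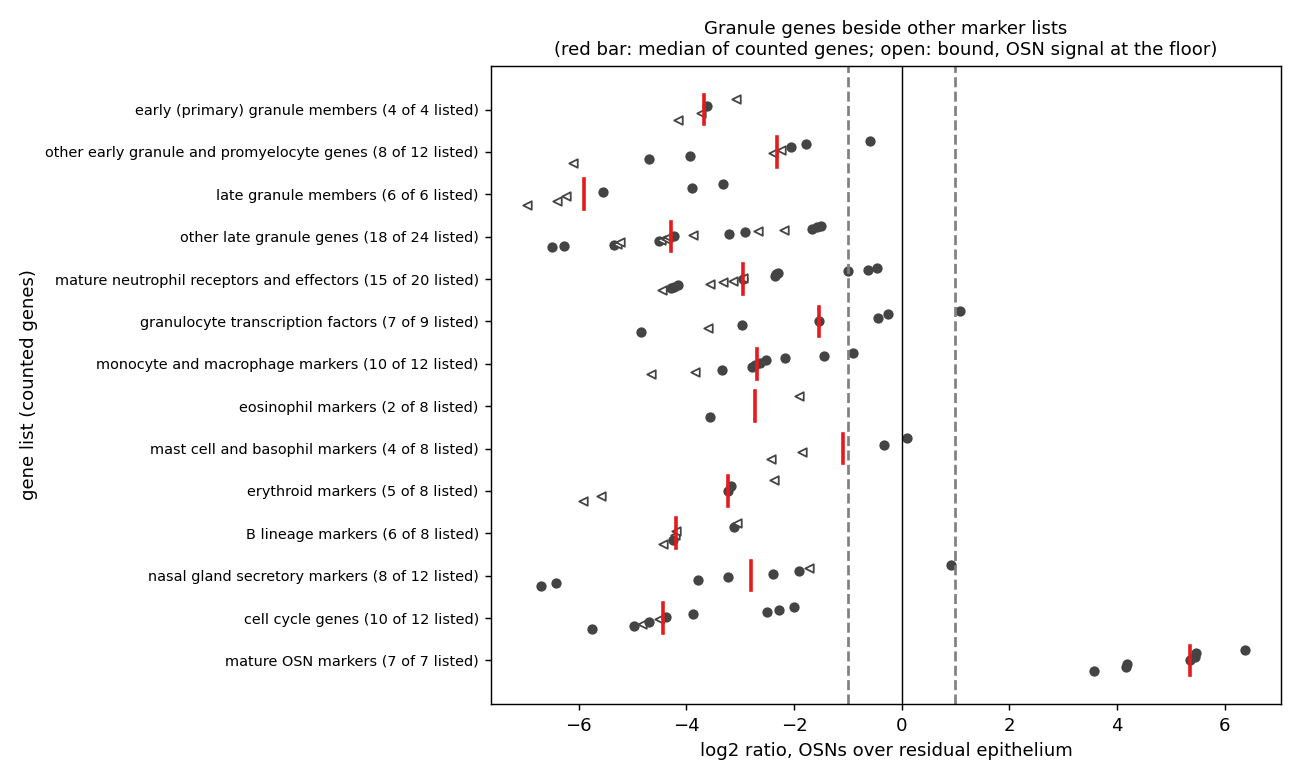
Log2 ratios of OSNs over residual epithelium for granule genes and other marker lists, 1 symbol per counted gene (open triangles, bounds; red bars, list medians; dashed lines, 2-fold). Early and late granule members have medians of -3.67 and -5.90 with 1 probe set per gene, and the erythroid, B lineage and cell cycle lists are also low, whereas mature OSN markers are high with a median of 5.36.

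Receptors and effectors of mature neutrophils were lower in OSNs relative to residual epithelium for 13 of 15 counted genes of 20 listed and higher for 0 (median -2.96). Of the 15, 11 reached the filter in residual epithelium only, which fixes their sign. Ncf4, a subunit of the oxidase that makes superoxide, was at least 21.9-fold lower and the cytokine gene Il1b was 19.4-fold lower. The Fc receptor gene Fcgr4 and the integrin gene Itgb2l had log2 ratios of -0.62 and -0.46. Csf3r, the receptor for granulocyte colony-stimulating factor, named here after its values were seen, had 213.3 in OSNs, against 1073.3 in residual epithelium and 197.6 in brain. Cxcr2, the chemokine receptor of mature neutrophils, also named after its values were seen, had 28.9 in OSNs, against 142.0 in residual epithelium and 39.2 in brain, all under the filter.

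Transcription factors of the granulocyte lineage were less uniform than the granule genes, and the only higher gene rests on 1 probe set. Of 7 counted genes of 9 listed, 4 were lower in OSNs relative to residual epithelium, 1 was higher and 2 were within 2-fold (median -1.53). The filter was reached in residual epithelium only by 4 of the 7, which fixes their sign. Myb, which is active in dividing precursors, was 28.8-fold lower, with its 3 probe sets from -4.85 to -2.35. Cebpd was at least 12.1-fold lower, with its 2 probe sets at -3.60 and -1.19. Cebpb had 1252.4 in OSNs, against 1490.7 in residual epithelium and 248.0 in brain, a log2 ratio of -0.25 between OSNs and residual epithelium. Runx1 was 2.11-fold higher in OSNs by the probe set that represents it, but its 4 counted probe sets ranged from -3.05 to 1.08. That probe set had 265.1 in OSNs and 125.5 in residual epithelium, so only OSNs reached the filter, which fixes its sign too. The 3 Runx1 probe sets counted in residual epithelium over brain were all higher, from 1.81 to 3.05. Spi1, the gene of PU.1, named after its values were seen, had 209.7 in OSNs, against 603.9 in residual epithelium and 133.6 in brain. Cebpe was not analysed here.

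Monocyte, erythroid, B lineage and nasal gland markers were also mostly lower in OSNs relative to residual epithelium. Their part in the granule gene result was not tested. Monocyte and macrophage markers were lower in OSNs relative to residual epithelium for 9 of 10 counted genes of 12 listed (median -2.68), led by Mpeg1 (at least 25.3-fold) and C1qa (at least 14.2-fold), with Adgre1 2.72-fold lower and Mrc1 at -0.90. Of the 10, 9 reached the filter in residual epithelium only, which fixes their sign. In OSNs over brain, 6 of 7 counted genes of this list were lower (median -2.29), against 22% of all counted probe sets of chip A. The signals of the 11 measured genes of this list summed to 1498.4 in OSNs, against 11721.2 in residual epithelium and 6124.9 in brain. Only 5 of 10 were at least 2-fold higher in residual epithelium than in brain, where 22.5% of all counted genes were higher. Such sums are weighted towards strongly binding probe sets, so they are compared between populations within a list and not between lists.

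All 5 counted erythroid genes were lower in OSNs relative to residual epithelium (median -3.23), with the anion exchanger gene Slc4a1 and the haem synthesis gene Alas2 at least 60.4-fold and at least 48.1-fold lower, and Klf1 8.96-fold and Epb42 at least 5.20-fold lower. All 6 counted B lineage genes were lower as well (median -4.19), among them Cd79b (at least 21.5-fold), Cd79a (19.0-fold), Vpreb3 (8.63-fold) and Rag1 (at least 8.32-fold). Erythroid signals summed to 444.4 in OSNs, against 10845.9 in residual epithelium and 499.3 in brain, and B lineage signals to 422.1, 7935.6 and 457.2 in the same order. Each of the 10 cell cycle genes counted was lower, with a median of -4.44, from Mki67 at 54.1-fold and Ube2c at 31.3-fold to Aurka at 4.87-fold and Aurkb at 3.98-fold. Their signals summed to 1314.5 in OSNs, against 22442.3 in residual epithelium and 778.8 in brain. The Mki67 value rests on an OSN signal of 73, next to the floor of 70.6. All 5 counted erythroid, all 6 counted B lineage and 9 of the 10 counted cell cycle genes reached the filter in residual epithelium only, which fixes their sign.

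Markers of other granulocytes were mostly low in all arrays. Of 6 eosinophil markers measured, 2 were counted: Prg2, the major basic protein, was 11.8-fold lower in OSNs relative to residual epithelium, and Siglecf was at least 3.73-fold lower. At the floor were 5 of the 6 in OSNs, against 3 in residual epithelium and 6 in brain, and the list summed to 234.5 in OSNs, against 1661 in residual epithelium and 151 in brain. Of 8 mast cell and basophil markers 4 were counted and 2 were lower, the basophil protease gene Mcpt8 at least 5.39-fold and the mast cell carboxypeptidase gene Cpa3 at least 3.60-fold. Gata2 and Ms4a2 had log2 ratios of -0.32 and 0.09. The list summed to 948.5 in OSNs, against 1510.2 in residual epithelium and 937 in brain, and 4, 3 and 3 of its 8 genes were at the floor in the same order. Both counted eosinophil genes and 2 of the 4 counted mast cell and basophil genes reached the filter in residual epithelium only, which fixes their sign.

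Glands also make Ltf and Lcn2, so a list of nasal gland secretory genes was measured. Of 8 counted genes of 12 listed, 7 were lower in OSNs relative to residual epithelium and 0 were higher (median -2.80). In residual epithelium only, 3 of the 8 reached the filter, which fixes their sign. Bpifb9b, a secreted BPI-fold protein, was 104-fold lower and the lysozyme gene Lyz1 85.7-fold lower. Pigr was at least 3.30-fold lower and Sec14l3 had a log2 ratio of 0.92. Whether the Lyz1 probe set also reads Lyz2, the lysozyme gene of myeloid cells named above, was not tested. The Lyz1 signal is therefore not assigned to glands alone. The signals of the 10 measured gland genes summed to 15278.6 in OSNs, against 87565.5 in residual epithelium and 1478.7 in brain, with 3, 1 and 6 of the 10 at the floor in the same order. Of the OSN sum, 8815.3 came from Sec14l3 alone. In OSNs over brain, 4 of 5 counted gland genes were at least 2-fold higher, against 18.5% of all counted genes, and Bpifb9b had a log2 ratio of 0.71. The other 5 of the 10 measured gland genes were not counted there, among them Dmbt1 at 0.68 and Lyz1 at -0.10. The part of gland RNA in the signals of Ltf and Lcn2 was not tested.

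All genes counted in both comparisons with residual epithelium were ranked by the size of their ratios and, separately, by nearness to the members. Of the 10 members, 3 lay in the top 10 of the 11857 genes ranked by size, 6 in the top 100 and 10 in the top 500. By the smaller of the log2 ratios of residual epithelium over OSNs and over brain, the top 10 genes that are not members were, in alphabetical order, Alas2, Bpifb9b, Cybb, H2-Aa, Hemgn, Lyz1, Mki67, S100a8, S100a9 and Slc4a1. The smaller ratio lay between 40.8-fold for Cybb, a subunit of the phagocyte oxidase, and 104-fold for Bpifb9b. This ranking finds the largest ratios and not the closest likeness. These genes lay from 1.81 (Hemgn) to 4.06 (Bpifb9b) log2 units from the members' median. Those of Alas2, Hemgn and Slc4a1 were bounds set by the floor, and that of Mki67 rests on an OSN signal of 73, next to the floor. The order of the 10 and which genes enter them therefore depend on the floor. Other probe sets of Cybb and H2-Aa lay nearer to equal signals, with log2 ratios of OSNs over residual epithelium of -3.27 and -2.79 at the near end. Bpifb9b, Cybb and H2-Aa were ranked by probe sets of chip B. By distance from the members' median (4.02 over OSNs and 4.36 over brain, in log2 units), the nearest 5 were Nusap1, Igll1, Vpreb1, Mcm6 and Crabp2, at 0.18 to 0.24 log2 units. All but Nusap1 had bounds in both ratios. Both rankings rest on 3 populations with 1 array each.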

How the data were processed

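The authors deposited 1 probe set signal per array, an intensity on a linear scale, for 3 populations on 2 chips (6 arrays). Per the submitters' processing notes the signals came from MAS5, a tool the notes list for 5 of 6 arrays, brain on chip A being the exception. The sources used here give no version, background correction, scaling target or detection calls. The mean between percentile 2 and percentile 98 was 499.6 to 499.9 on every array, which shows a common scaling of all arrays, and amounts per cell cannot be compared. Median signals were 194.7 to 239.6 on chip A and 224.7 to 257.7 on chip B.

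The 64 control probe sets of each chip were left out. Probe sets were named from the platform annotation, with symbols updated through Entrez identifiers in the RefSeq table of GRCm38.p6, and probe sets with several symbols were given no name. Log2 ratios were taken within a chip after raising signals to the lower quartile of the chip, with a filter at the chip median, a call at 2-fold and no test, since there was 1 array per population and chip. The computation was tested on simulated data. Alternatives were a floor at percentile 10 or at percentile 40, a pseudocount of 32, no filter, a filter at percentile 75, centred ratios, quantile normalization, scaling on shared probe sets, a call at 4-fold, 1 probe set per gene and, added after seeing the data, plain ratios without a floor.

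Named genes are the members and the 2 highest and 2 lowest counted genes of each of 15 other lists (described for the lists that bear on the members). Also named are the 10 genes ranked highest by size of ratio and the 5 genes nearest to the members, by the measures given. Csf3r, Cxcr2, Spi1 and Dmbt1 lie outside this rule and were named after their values were seen, and Cebpe is named without a value. The members and lists were chosen with earlier results of these data known. The software was matplotlib 3.10.9, pandas 2.3.3 and numpy 2.4.6 under Python 3.11.15.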

Additional observations from a re-analysis of the deposited data

Results flagged for a closer look

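A probe set annotated to both Chil4 and Chil3 (1425451_s_at) was outside the comparisons, because probe sets with several symbols were left unnamed. It was singled out as a signal in a probe set that the comparisons do not use, above the level in brain. It had 156.9 in OSNs, against 3398.6 in residual epithelium and 72.0 in brain, 21.7-fold lower in OSNs relative to residual epithelium and 47.2-fold higher in residual epithelium than in brain. Which of the 2 genes gave the signal was not tested.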

How the results depend on the processing

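All counted members were lower in OSNs relative to residual epithelium, and higher in residual epithelium than in brain, under every alternative. These were 10 of 10 with the signal filter at percentile 75 and with 1 probe set per gene, and 11 of 11 under each other alternative. In OSNs over brain 0 members were called under any alternative, with 11 counted without the filter, 0 with the filter at percentile 75, and 3 as reported. Without the filter the floor stayed in place and set most of the added ratios to 0, so these could not be called. With no floor, ratios of members whose OSN signal lay under it ran from -0.63 for Prtn3 to 1.96 for Camp, with Lcn2 at 1.36. Those ratios were not counted, because their signals lay under the filter. For OSNs over residual epithelium the early median was -4.54 with the floor at percentile 10 and with no floor, and -2.88 with the floor at percentile 40. The late median was -5.19 with the floor at percentile 40 and -5.90 with 1 probe set per gene, which leaves out 1 Mmp9 probe set. For residual epithelium over brain the early median was 4.53 with the floor at percentile 10 and with no floor, and 2.88 with the floor at percentile 40, at which the late median was 5.19. Moving the floor changes the size of every bound. For OSNs over brain the early median was 0.70 after quantile normalization and 0 without the filter, and the late median was 0 without the filter. No called ratio of a member changed sign under any alternative. Scaling on the shared probe sets moved the median of all counted probe sets of chip A to -0.16 (-0.02 as reported) for OSNs over residual epithelium and to -0.19 (0.003 as reported) for OSNs over brain. No paired analysis was possible because the labels give no replicate numbers and each population had 1 array per chip. Signals near or under the floor limit what can be said of 7 members' probe sets in OSNs and 6 in brain.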
